A study of Homo sapiens with 4 samples.

Results

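The genes described are the MYC, MAX and MXD network: the MYC family (MYC, MYCN and MYCL1, now named MYCL), their shared partner MAX, the MXD repressors (MXD1, MXI1, MXD3 and MXD4) and the larger MAX partners MNT and MGA. The set of genes was chosen with earlier results of these data known, and its probes were then taken by name. Every non-control probe that carries the symbol or an older alias of a member, or a RefSeq transcript of it, was included. The 10 genes had 23 probes on the array. Of these probes 16 passed the filter on dim signal and 7 did not, which left 9 genes to test among 17649 genes or transcripts tested in all. MYCL1 was the gene without a kept probe. To pass, a probe had to stand well clear of background, by the scanner software's own flag, in both replicates of control or of embelin, so that a gene off in both groups could not enter the test.

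Gene expression was measured in A549, a human lung adenocarcinoma cell line, after exposure to embelin, a plant benzoquinone with an aliphatic chain. The embelin group held 2 samples treated with 15 µM for 4 h, and the control group held 2 untreated samples collected at 4 h. All 4 samples had been moved to medium with 2% serum for the last 12 h before treatment, and A549 is 1 line, so that every value belongs to that line under low serum. Each sample was hybridised with a single dye to 1 Agilent array of 1 slide. The labels do not say whether replicates were separate cultures, so p-values measure only the spread between these samples, which may be technical. With 2 arrays a group an exact permutation test of a single gene cannot go below p = 0.333, and the tests given are from limma, which borrows the spread across genes, with Benjamini-Hochberg adjustment over all 17649.

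MYC proteins are transcription factors that bind DNA only as dimers with MAX. MYC and MAX dimers recruit histone acetyltransferases and raise transcription from promoters with an E-box (CACGTG), among them genes for ribosome assembly, nucleotide synthesis and cell cycle entry. MXD proteins, MNT and MGA compete for the same MAX and the same sites: MXD proteins and MNT bring SIN3 and histone deacetylases, and MGA works in a Polycomb complex. The balance of activating and repressing partners of MAX is therefore read as a whole, and MYC mRNA is known for its short life in dividing cells.

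Values were spread widely over the network. MXD1 rose 5.73-fold and was the one member called after adjustment (adjusted p = 0.0373, limma). MXI1 and MNT were higher and MXD3 was lower by at least 2-fold without passing the adjusted threshold. MYC, MYCN, MAX and MXD4 had intervals that included 0, and MGA was lower without an adjusted call. In counts, 1 of 9 tested members was called higher and 0 lower at an adjusted p below 0.05, where the shares of the whole table called higher and lower were 1.25% and 0.561%. The study used a threshold of at least 2-fold with p below 0.05 and states no adjustment. At this threshold, with the unadjusted p from limma, 3 members were higher (MXD1, MXI1 and MNT) and 1 was lower (MXD3), of which MXI1 rests on 1 embelin array and did not pass with the study's Student's test. The background was 4.27% of all genes higher and 3.99% lower. The median log2 fold change of the 9 tested members was -0.02, beside -0.06 over all genes tested.

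The promoters of the 4 members that met this 2-fold threshold are shown because they are the stretches of DNA at which their transcripts start. The sequences are RefSeq's on GRCh38.p14, from 250 bases before to 50 bases after an annotated start, written 5′ to 3′ on the strand of the gene. Capitals mark matches to the E-box CACGTG or to ACGTG, the core of the element bound by hypoxia-inducible factors, each searched on both strands, where every E-box also holds an ACGTG. MXI1 has 3 annotated starts, and the one with a match is given.
MXD1, chr2:69914859-69915158, plus strand: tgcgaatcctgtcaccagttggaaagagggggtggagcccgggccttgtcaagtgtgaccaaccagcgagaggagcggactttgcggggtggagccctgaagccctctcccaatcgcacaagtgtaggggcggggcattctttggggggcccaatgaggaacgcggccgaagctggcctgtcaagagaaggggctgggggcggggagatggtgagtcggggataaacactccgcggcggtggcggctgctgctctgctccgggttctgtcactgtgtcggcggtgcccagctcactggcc
MXI1, chr10:110209981-110210280, plus strand: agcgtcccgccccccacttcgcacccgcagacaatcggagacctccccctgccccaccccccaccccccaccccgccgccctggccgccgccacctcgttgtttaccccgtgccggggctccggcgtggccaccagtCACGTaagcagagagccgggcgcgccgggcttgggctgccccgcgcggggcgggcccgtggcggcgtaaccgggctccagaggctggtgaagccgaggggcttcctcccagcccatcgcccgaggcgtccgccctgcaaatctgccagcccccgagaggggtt
MNT, chr17:2401011-2401310, minus strand: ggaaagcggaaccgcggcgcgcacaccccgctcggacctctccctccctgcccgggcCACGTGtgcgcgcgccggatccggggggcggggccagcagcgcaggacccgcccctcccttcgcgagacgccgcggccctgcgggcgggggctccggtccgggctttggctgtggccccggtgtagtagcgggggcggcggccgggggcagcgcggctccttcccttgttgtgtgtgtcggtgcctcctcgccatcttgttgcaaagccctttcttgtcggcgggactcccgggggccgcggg
MXD3, chr5:177312703-177313002, minus strand: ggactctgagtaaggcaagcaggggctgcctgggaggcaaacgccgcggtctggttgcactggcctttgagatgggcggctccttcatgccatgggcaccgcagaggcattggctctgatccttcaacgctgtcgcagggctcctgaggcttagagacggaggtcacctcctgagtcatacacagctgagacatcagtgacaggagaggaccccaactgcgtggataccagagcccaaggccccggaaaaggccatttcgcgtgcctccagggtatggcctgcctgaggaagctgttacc

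The MNT window held an E-box that begins at position -193 from the start. The MXI1 window shown, which was chosen for its match, held ACGTG on the opposite strand at position -113. Windows at the other MXI1 starts held neither motif, and the windows of MXD1 and MXD3 also held neither. Over 35116 promoter windows of 300 bases in the same table, 7.26% held CACGTG and 21.4% held ACGTG. Among 14 windows of 9 members searched (MYC was not searched), 2 held CACGTG, those of MNT and MXD4, and 5 held ACGTG. These matches are letters in a window and no binding was measured.

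The array reads each transcript through probes of 60 bases, and 4 of them are shown as the sequences behind values described further on. Their place in the transcript was not looked up. The MXD3 probe was the only one for its gene, and the MXD1 probe is the dimmer of a pair whose other member carried the call. The MXD4 probe is the brightest of 3 and gave a difference near 0. The MAX probe is the dimmer of 2 kept probes.
MXD1: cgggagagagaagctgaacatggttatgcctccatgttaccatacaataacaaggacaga
MXD3: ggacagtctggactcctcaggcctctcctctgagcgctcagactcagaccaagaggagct
MXD4: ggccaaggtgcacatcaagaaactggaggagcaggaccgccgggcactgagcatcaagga
MAX: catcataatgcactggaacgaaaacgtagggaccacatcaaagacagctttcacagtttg

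The 4 arrays were usable at unequal depth. Well above background were 66.7% of the 50238 probes for control replicate 1 and 66.4% for embelin replicate 2, but 50.3% for control replicate 2 and 51.2% for embelin replicate 1, so that each group held 1 array of each kind. Values within the like pairs (control replicate 1 with embelin replicate 2, and control replicate 2 with embelin replicate 1) are therefore given beside the results that turn on them. The control arrays lay at slide positions 4 and 1 and the embelin arrays at 2 and 3, so that the groups had the same mean position. A fit with position as a covariate therefore could not move the log2 fold change of a gene measured on all 4 arrays. It left MXD1 at 2.52 by construction, with an adjusted p of 0.0985 (limma). No spot was saturated. All 10 epithelial and A549 marker genes, among them KRT18 and AKR1B10, were well above background on all 4 arrays and 0 of them were called changed. Of 5 blood cell markers 2 had a kept probe (CD3E and CD14), and of 5 fibroblast and endothelial markers only PDGFRA had one. In whole-culture RNA, fewer cells with a transcript and less of it per cell cannot be told apart.

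**Figure D1:**
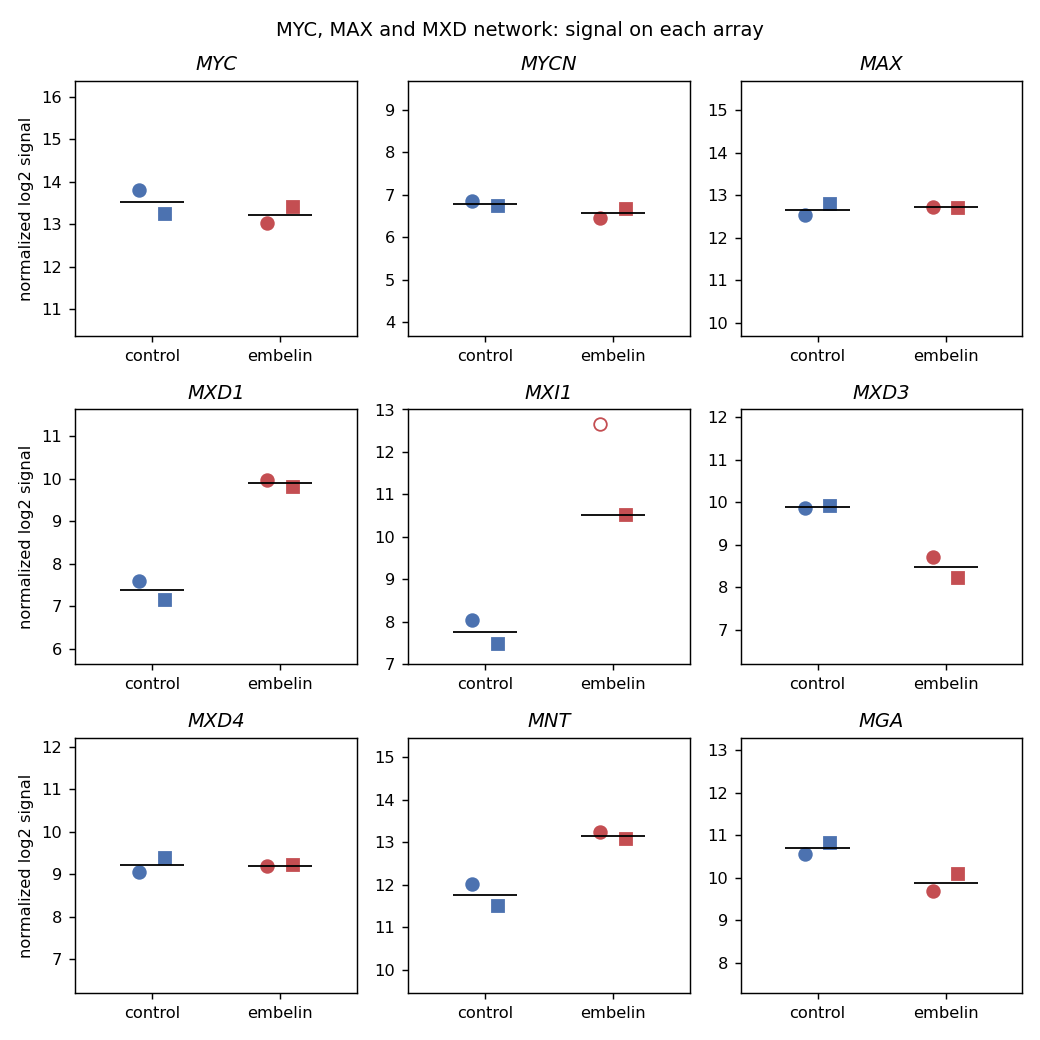
Normalized log2 signal (vertical axis, each panel spanning 6 log2 units) of the probe that stands for each of the 9 tested members in control and embelin samples. Circles are replicate 1, squares replicate 2 and black lines group means; the open circle is the MXI1 spot that the scanner software marked as an outlier and that was left out. The control and embelin points lie apart for MXD1, MXD3 and MNT and overlap for MYC, MAX and MXD4.

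The first question was whether the activating side of the network changed. MYC, the founding member, gave normalized log2 signals of 13.82 and 13.24 in controls and 13.04 and 13.40 with embelin. The groups overlapped, with control replicate 1 the highest and embelin replicate 1 the lowest of the arrays. The log2 fold change was -0.31 (SE 0.28, 95% interval -1.08 to 0.46, adjusted p = 0.613, limma), an interval that reaches just past a 2-fold fall on one side and a small rise on the other. In the like pairs the log2 difference was -0.42 between control replicate 1 and embelin replicate 2 and -0.20 between control replicate 2 and embelin replicate 1. The value rested in part on control replicate 1, without which it was -0.02. A dimmer MYC probe read 6.73 and 6.45 in controls and 6.32 and 6.61 with embelin, a difference of -0.12, and the remaining MYC probe was below background on every array.

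MYCN, the family member of neural tissue, was read at a low level by 1 kept probe, with log2 signals of 6.85 and 6.73 in controls and 6.45 and 6.67 with embelin. Both embelin arrays lay below both control arrays, but by as little as 0.06. The log2 fold change of -0.23 (SE 0.18, 95% interval -0.72 to 0.26) was not called (adjusted p = 0.542, limma). The other MYCN probe was below background on all arrays.

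MYCL1, first found amplified in small cell lung cancer, had no probe that met the filter. The brighter of its probes read 4.04 and 3.74 in controls and 4.51 and 4.47 with embelin, and it was above background only on control replicate 1 and embelin replicate 2, the arrays with the larger share of detected probes. Its other probe was below background throughout, so no fold is given.

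MAX, the shared partner of the network, gave values within the range of the controls. Its log2 signals were 12.55 and 12.79 in controls and 12.72 and 12.71 with embelin, so that both embelin values lay between the control values. This gave a log2 fold change of 0.05 (SE 0.18, 95% interval -0.44 to 0.53, adjusted p = 0.921, limma), and without control replicate 1 it was -0.07. The probe shown among the sequences read 7.66 and 8.11 in controls and 7.89 and 8.23 with embelin, a difference of 0.18 with overlapping groups. The other MAX probe, for another transcript, was above background on 1 array of each group and was not tested.

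The second question was whether the repressing partners changed. MXD1 (also MAD1), a repressor that is switched on as cells leave the cycle and differentiate, read 7.60 and 7.14 in controls and 9.98 and 9.80 with embelin. In linear normalized signal this is 194 and 141 against 1009 and 891. Both embelin arrays lay more than 2 log2 units above both control arrays. The log2 fold change was 2.52 (SE 0.23, 95% interval 1.88 to 3.16, adjusted p = 0.0373, limma), which placed MXD1 at rank 158 by p among the genes tested. Its difference was 2.20 between control replicate 1 and embelin replicate 2 and 2.84 between control replicate 2 and embelin replicate 1.

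The other MXD1 probe, shown among the sequences, read 5.31 and 3.85 in controls and 7.77 and 6.53 with embelin. It was above background on both embelin arrays and on control replicate 1 only. The fitted log2 difference of 2.57 (SE 0.67) includes the unmeasured control replicate 2 and is not an estimate of size, and the probe was not called when each was tested on its own (adjusted p = 0.173, limma). Within the like pair in which both arrays measured it, control replicate 1 and embelin replicate 2, the difference was 1.22, against 2.20 for the brighter probe. The call of MXD1 lay close to the threshold, and it was lost with arrays of like background as a block (adjusted p = 0.190, limma), a fit in which 0 genes were called (2759 at an unadjusted p below 0.05). In the same way, leaving out any 1 of the 4 arrays kept the log2 fold change between 2.29 and 2.75 but lifted the adjusted p to between 0.0600 without control replicate 1 and 0.213 without embelin replicate 1. With any array left out no gene of the whole table was called, so that this loss was not particular to MXD1.

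MXI1 (MAD2), a repressor of the same family known as a target of hypoxia-inducible factors, was read by a single probe. It gave log2 signals of 8.06 and 7.48 in controls and 10.53 for embelin replicate 2. The spot on embelin replicate 1 was marked by the scanner software as non-uniform and left out, so that the embelin value rests on 1 array. Relative to control the log2 fold change was 2.76 (SE 0.36, 95% interval 1.66 to 3.86), a 6.76-fold higher signal, with an adjusted p of 0.0803 in limma. Since the embelin group had 1 value, the SE, the interval and the p take their spread from the controls and from the other genes. Student's test on the same values gave an unadjusted p of 0.114, so that by the study's own kind of test MXI1 did not pass. The spot left out had read 12.66, brighter than the other embelin array by over 2 log2 units. With it kept the log2 fold change was 3.83, the SE widened to 0.81 and the adjusted p was 0.129 (limma). Both readings lay above both controls, but the size of the difference turned on the spot.

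MNT, the broadly expressed antagonist of MYC that is present in resting and dividing cells alike, read 12.01 and 11.50 in controls and 13.24 and 13.08 with embelin. The embelin arrays lay at least 1.06 log2 units above the controls. The log2 fold change of 1.40 (SE 0.24, 95% interval 0.74 to 2.07), 2.65-fold, had an adjusted p of 0.0838 in limma. A second MNT probe, designed on another transcript record, read 7.57 and 6.79 in controls and 7.97 and 7.42 with embelin, a difference of 0.52 with overlapping groups. Within the like pairs the second probe gave -0.14 between control replicate 1 and embelin replicate 2 and 1.18 between control replicate 2 and embelin replicate 1, so that its direction was not settled. The brighter probe gave 1.06 and 1.75 in the same pairs.

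MXD3 (MAD3), the family member found in cycling cells around the time of DNA synthesis, had a value of the opposite sign to that of MXD1. Its one probe read 9.87 and 9.92 in controls and 8.72 and 8.22 with embelin. The control arrays lay within 0.05 of each other and both embelin arrays lay more than 1 log2 unit below them. Embelin over control gave -1.42 in log2 (SE 0.23, 95% interval -2.06 to -0.79), a 2.68-fold lower signal, with an adjusted p of 0.0768 in limma. In the like pairs the difference was -1.65 and -1.20.

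MXD4 (MAD4), a repressor linked with differentiated cells, gave a value that depended on the probe. The brightest of its 3 kept probes read 9.05 and 9.39 in controls and 9.19 and 9.21 with embelin, a log2 fold change of -0.02 (SE 0.20, 95% interval -0.55 to 0.52, adjusted p = 0.975, limma). A second probe read 8.62 and 8.38 in controls and 7.92 and 7.95 with embelin, and the last one read 8.50 and 8.70 against 7.90 and 7.83. On these probes the embelin arrays lay below the controls, by -0.56 and -0.73 on the log2 scale, with adjusted p of 0.25 and 0.164 when each probe was tested on its own (limma). No MXD4 probe was called, and the sign of the brightest one turned under several alternatives, with 0.15 as its highest value without control replicate 2.

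MGA, the large partner that carries a T-box domain beside its MAX-binding domain, read 10.56 and 10.83 in controls and 9.69 and 10.09 with embelin. The groups did not overlap. Its log2 fold change was -0.81 (SE 0.23, 95% interval -1.43 to -0.18, adjusted p = 0.176, limma). The other kept probe read 9.49 and 8.82 in controls and 8.40 and 8.34 with embelin, a difference of -0.79, and the remaining MGA probes were above background on at most 1 array of a group.

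**Figure D2:**
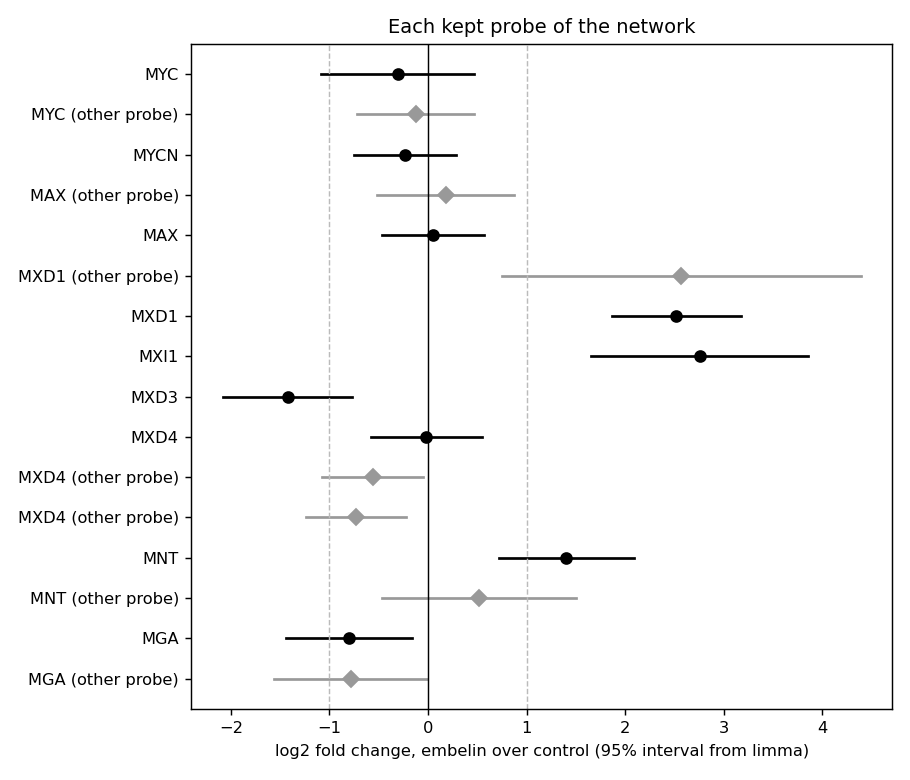
Log2 fold change of embelin over control (horizontal axis) for each of the 16 kept probes, with the 95% interval from limma fitted to every probe on its own. Black circles are the probes that stand for a gene, grey diamonds the other probes, and dashed lines mark a 2-fold change. The brighter MXD1 probe lies at 2.52, the dimmer one includes a control array below background, and the probes of MNT and MXD4 differ in size.

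In the 8 members measured on all 4 arrays, both embelin arrays lay above both controls in 2 (MXD1 and MNT) and below them in 3 (MYCN, MXD3 and MGA), and the groups overlapped in 3. In the same sense 21.1% lay above and 30.7% below among the 17298 genes of the table measured on 4 arrays. Within the MXD family the 4 genes gave 2 higher values, of which MXI1 rests on 1 embelin array, 1 lower value and 1 near 0. The value near 0 was that of the brightest MXD4 probe, and the other MXD4 probes gave -0.56 and -0.73. No single direction held for the repressors as a class. Signals of different probes are not compared as levels, since each probe has its own brightness.

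The genes whose pattern over the 4 arrays was most like that of MXD1, by the root mean square difference of log2 values after subtracting each gene's control mean, were B3GNT5 (0.0805) and PMAIP1 (0.0895) among genes measured on all 4 arrays. B3GNT5, a glycosyltransferase, read 9.44 and 9.08 in controls and 11.93 and 11.56 with embelin. PMAIP1, which encodes the pro-apoptotic protein NOXA, read 9.69 and 8.98 in controls and 11.89 and 11.75 with embelin. PLAAT1 was also named by this measure, but it was too dim on both control arrays to be measured, so that its likeness to MXD1 has no value. Its embelin signal was at least 2.57-fold higher, with each control array set to the dimmest detected probe there or to the probe's own signal, whichever was higher. The adjusted p of 0.0267 (limma) was computed from those unmeasured control signals.

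A further question was how the partners through which the network acts were placed. The lists were written by hand with earlier results of these data known, so that their counts and directions are no independent evidence, and they are described by counts, beside 43.9% of all genes with a log2 fold change above 0 and 56.1% below. The MLX branch, a parallel set of dimers that senses glucose, had 3 of 3 genes tested and 0 called. MLX differed by 0.18 and MLXIP by -0.33, and the other MLXIP probes gave 0.18 and 0.81, so that no direction held. With 1 array left out the list medians given here and in what follows moved within these ranges: -0.0081 to 0.23 for the MLX branch, -0.0251 to 0.21 for coactivators, -0.28 to -0.0363 for corepressors, -0.15 to -0.0075 for the MGA complex, -0.26 to 0.0726 for protein stability and -0.14 to 0.097 for transcript regulators. Medians of the target lists ranged from -0.19 to -0.0865 for ribosome biogenesis, -0.17 to -0.0206 for cell cycle and translation, 0.26 to 0.45 for glucose and glutamine, and 0.31 to 0.49 for genes repressed by MYC. All 17 genes of the MYC coactivator list, which also holds the repressing partner ZBTB17, were tested. Of these 0 were called, and their median difference was 0.03. The lowest p among them belonged to BPTF, a chromatin remodelling subunit, at -0.63 (adjusted p = 0.172, limma) and ZBTB17, which encodes MIZ1, the factor through which MYC represses, at 0.62 (adjusted p = 0.173, limma).

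Of the 12 SIN3 and NCOR corepressor genes, through which MXD proteins silence their targets, 0 were called, and the median was -0.15. SAP30, a SIN3 complex subunit, read 12.03 and 11.80 in controls and 13.22 and 13.09 with embelin, a log2 fold change of 1.24 (SE 0.18, adjusted p = 0.0639, limma). HDAC3, the deacetylase of the NCOR complex, differed by 0.65 (adjusted p = 0.137, limma). The scaffold SIN3A gave -0.82, HDAC1 -0.52 and HDAC2 -0.69, none of them called (chosen after their values were seen).

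MGA's Polycomb complex was measured through 11 other subunits, 0 of them called, with a median of -0.08. RYBP, which binds the ring finger subunit, read 12.19 and 11.93 in controls and 13.57 and 13.49 with embelin. Its log2 fold change of 1.47 (SE 0.18) missed the threshold narrowly (adjusted p = 0.0526, limma), and its other probes gave 1.75 and 1.82. EHMT2, a histone methyltransferase, differed by -0.67 (adjusted p = 0.233, limma).

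Genes that set the level of MYC itself were listed in 2 groups. Among 17 genes of MYC protein stability 0 were called. At the 2-fold threshold 2 of them were higher and 2 lower, beside 4.27% and 3.99% of all genes. USP36, a nucleolar deubiquitinase that protects MYC, read 11.73 and 11.99 in controls and 13.18 and 13.40 with embelin, a log2 fold change of 1.44 (SE 0.20, adjusted p = 0.0588, limma). AURKA, a mitotic kinase that shields MYC proteins from degradation, read 12.82 and 12.95 in controls and 11.44 and 11.71 with embelin, a log2 fold change of -1.31 (SE 0.19, adjusted p = 0.0627, limma). Among 16 regulators of the MYC transcript 1 was called higher, where 1.25% of all genes were so called. The called gene was ZFP36, a protein that binds AU-rich elements and speeds the decay of short-lived mRNAs. It read 10.78 and 10.77 in controls and 12.70 and 13.05 with embelin, a log2 fold change of 2.10 (SE 0.20, adjusted p = 0.0380, limma), while MYC itself had overlapping groups.

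The last question was where known targets of MYC lay. Of 36 ribosome biogenesis genes 0 were called in either direction, 28 had a log2 fold change below 0 and 8 above, and the median was -0.14. RRS1, a ribosome assembly factor, read 12.94 and 12.90 in controls and 11.84 and 11.65 with embelin, a log2 fold change of -1.17 (SE 0.17, adjusted p = 0.0639, limma). POLR1B, a subunit of RNA polymerase I, differed by -0.92 (adjusted p = 0.127, limma). The abundant nucleolar genes NPM1 and FBL differed by 0.09 and 0.03 (chosen after their values were seen).

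Of 17 genes for nucleotides, polyamines and one-carbon metabolism 0 were called, 14 lay below 0 and 3 above, and the median was -0.32. It was -0.14 without control replicate 2 and -0.12 without embelin replicate 1, the arrays with fewer detected probes. CAD, which starts pyrimidine synthesis, differed by -0.76 (adjusted p = 0.137, limma). ODC1, the first enzyme of polyamine synthesis and a classical MYC target, read 13.68 and 13.71 in controls and 13.20 and 13.28 with embelin, a log2 fold change of -0.46 (adjusted p = 0.241, limma).

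Of 16 tested genes for cell cycle and translation 2 were called lower and 0 higher, where 0.561% and 1.25% of all genes were so called. In sign, 12 lay below 0 and 4 above. CDC25A, the phosphatase that opens entry to DNA synthesis, read 9.76 and 9.79 in controls and 7.47 and 7.78 with embelin, a log2 fold change of -2.15 (SE 0.19, adjusted p = 0.0350, limma), and its other probe gave -2.36. E2F2, an activator of cell cycle genes, read 12.17 and 12.23 in controls and 9.70 and 10.18 with embelin, a log2 fold change of -2.26 (SE 0.23, adjusted p = 0.0421, limma). Its other probe gave 0.47, so that the fall of E2F2 belongs to 1 probe. The median of the list was -0.07.

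Of 9 targets for glucose and glutamine use 3 were called higher and 0 lower, where 1.25% and 0.561% of all genes were so called. In sign, 6 lay above 0 and 3 below, and the median was 0.39. HK2, the inducible hexokinase, read 6.61 and 6.42 in controls and 12.18 and 12.41 with embelin, a 54.8-fold rise (log2 fold change 5.77, SE 0.19, adjusted p = 0.0204, limma). The other HK2 probe gave 5.40 on the log2 scale. PDK1, the kinase that closes pyruvate dehydrogenase, rose by 2.78 on the log2 scale (adjusted p = 0.0259, limma), and SLC2A1, the glucose transporter GLUT1, by 1.83 (adjusted p = 0.0432, limma). These 3 genes are also known targets of hypoxia-inducible factors, as MXI1 is. Whether these factors had a part in the values was not tested.

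Of 11 genes known to be repressed by MYC 9 were tested, with a median of 0.40. Of these 1 was called higher and 0 lower, where 1.25% and 0.561% of all genes were so called. NDRG1, a stress and differentiation gene that also answers to hypoxia-inducible factors, read 12.57 and 12.77 in controls and 17.42 and 17.30 with embelin, a 25.8-fold rise (log2 fold change 4.69, SE 0.18, adjusted p = 0.0204, limma). Its other probe gave 5.01. GADD45A differed by 1.51 (adjusted p = 0.0976, limma), the cell cycle inhibitor CDKN1A by 1.25 (adjusted p = 0.0585, limma) and CDKN1B by 0.93 (adjusted p = 0.127, limma), none of them called. At the 2-fold threshold 3 genes of the list were higher (NDRG1, CDKN1A and GADD45A) and 0 lower, beside 4.27% and 3.99% of all genes. Of the 9 tested genes 6 lay above 0 and 3 below. The lower ones were CEBPA at -0.83 (adjusted p = 0.187, limma), NDRG2 at -0.61 (adjusted p = 0.216, limma) and THBS1 at -0.33 (adjusted p = 0.607, limma). Apart from NDRG1, the genes of this list were named after seeing their values. Medians of the activated target lists ran from -0.32 to 0.39, and called genes lay in 3 of the 5 target lists.

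**Figure D3:**
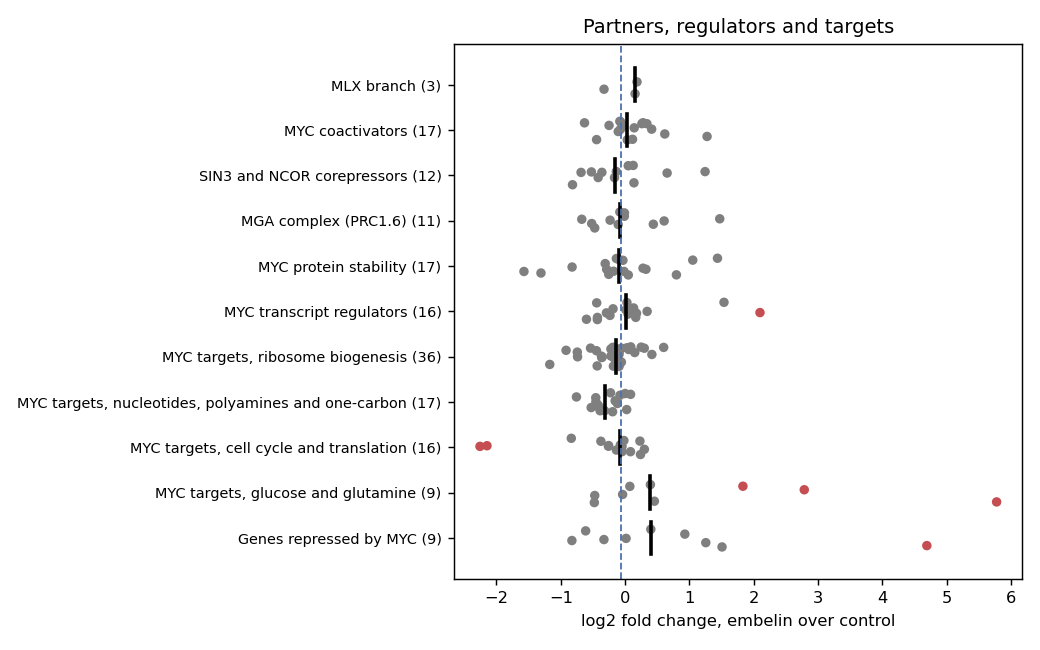
Log2 fold change of embelin over control (horizontal axis) for each tested gene of the lists of partners, regulators and targets, with the number tested in brackets. Red points passed the adjusted threshold, black bars are list medians and the dashed line is the median over all genes, -0.06. HK2 and NDRG1 lie far to the right, at 5.77 and 4.69, and CDC25A and E2F2 to the left near -2.

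**Figure D4:**
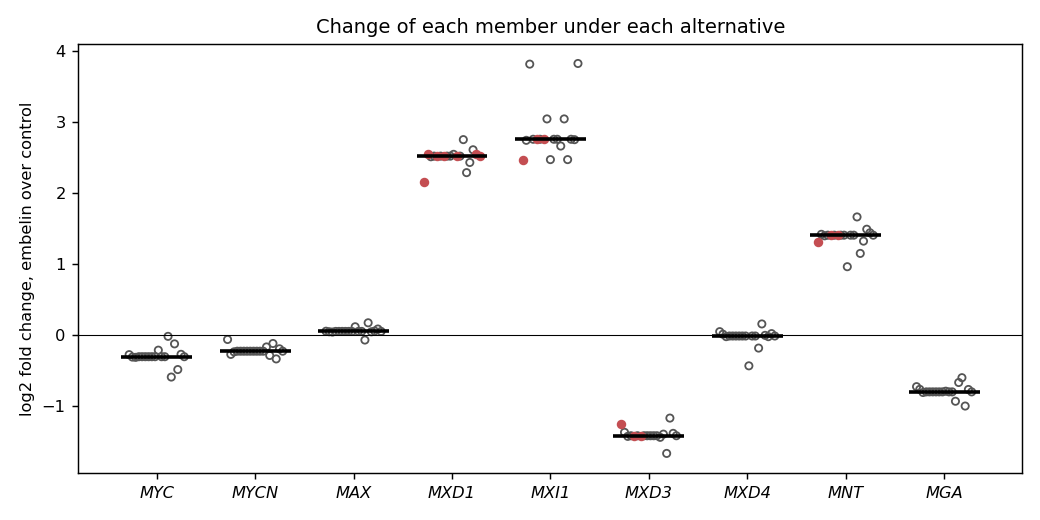
Log2 fold change of each tested member (vertical axis) under 18 alternatives (17 for MXI1), as points, with the main value as a black bar. Filled red points are alternatives with an adjusted p below 0.05, 7 for MXD1 and 3 each for MXI1, MXD3 and MNT. The 4 members past the 2-fold threshold kept their sign throughout, while MAX and MXD4 crossed 0. For members measured on all 4 arrays, alternatives that change only the test or add a covariate balanced between the groups repeat the main value.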

How the data were processed

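RNA of 4 A549 samples (2 control, 2 embelin) was labelled with Cy3 and hybridised to 4 arrays of 1 slide. The authors deposited spot intensities from Agilent Feature Extraction (per the file headers, release 10.7.3.1), background-subtracted and detrended but not normalized between arrays, and a table of the same intensity values per probe. The study's methods call for a shift to the 75th percentile and for Student's t-test with a threshold of 2-fold, and its results add p below 0.05. Here intensities were scaled to an equal 75th percentile, given a floor of 1 and log2-transformed, outlier spots were left out and spots of a probe averaged. The brightest kept probe stood for a gene. Of 50238 probes, 28595 were named by accession in a RefSeq gene table, 2341 through a probe with the same name, and 19302 kept the name in the files. R 4.3.3 with limma 3.58.1 (lmFit, eBayes) was used, and the fit was tested on simulated data. The median pooled SD was 0.211 in log2, and precision is limited by how few arrays there were.

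The members and lists were chosen with earlier results of these data known. Named were all members, from each list the called genes (at most 4) or else the 2 of lowest p, and the 3 genes most like the called member of largest change. Alternatives were normexp background correction (offset 50), quantile normalization, the deposited probe table, no filter or a filter on all 4 arrays, eBayes with trend and robust, the methods' t-test, the replicate number, arrays of like background or slide position in the fit, other choices of probe, and leaving out each array. The files name no genome build, and coordinates are those of RefSeq promoters. Some genes of the lists are counted but not reported here by name.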

Additional observations from a re-analysis of the deposited data

How the results depend on the processing

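Of the members, MYC, MYCN and MGA kept their direction and were not called under any of the 18 alternatives. For members measured on all 4 arrays, several alternatives could not move the log2 fold change, so that its direction was fixed. These were the methods' t-test, trend and robust, and the replicate number, like-background arrays or slide position in the fit. The filters and the fit of each probe on its own left these members with the same probe and value. MXD1 kept its direction under all 18 and its call under 7. The call was lost with the deposited probe table (2.51, adjusted p = 0.0508), no filter on dim probes (2.52, 0.383), the methods' t-test (2.52, 0.214), the block of like-background arrays (2.52, 0.190), the mean over probes (2.54, 0.0875) and slide position (2.52, 0.0985). MNT, MXD3 and MXI1 (1 embelin array) became called with normexp (1.31, -1.25 and 2.47), with a filter on all 4 arrays (1.40, -1.42 and 2.76) and with trend and robust (1.40, -1.42 and 2.76). Leaving out 1 array gave 2.29 to 2.75 for MXD1, 1.15 to 1.66 for MNT, -1.67 to -1.17 for MXD3, 2.47 to 3.04 for MXI1 (no value without embelin replicate 2), -1.01 to -0.61 for MGA, -0.60 to -0.02 for MYC, -0.34 to -0.12 for MYCN, -0.0743 (reversed, without control replicate 1) to 0.17 for MAX and -0.19 to 0.15 for MXD4. MXD4 turned positive with normexp (0.044), quantile normalization (0.0079) and, in an alternative chosen after seeing the data, a percentile taken without outlier spots (0.0162). The mean over probes gave the lowest MXD4 value, -0.44 (adjusted p = 0.292, limma). It also took MNT to 0.96 (adjusted p = 0.218, limma), below a 2-fold change. The causes were not tested.

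The number of genes called, 320 in the main setting, was 699 with normexp, 159 with the deposited table, 764 with a filter on all 4 arrays, 1061 with trend and robust and 177 with outlier spots kept (chosen after seeing the data). It was 0 without a filter, with the methods' t-test, with the block of like-background arrays, with slide position and without any 1 array (0 to 0), where unadjusted p lay below 0.05 for 2345, 2755, 2759, 3053 and 2131 to 3052 genes. The count at the 2-fold threshold, 1458, was 891 with normexp and 1348 to 2158 without 1 array.

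With the replicate number as a block, 0 genes were called after adjustment, 3743 at an unadjusted p below 0.05, and MXD1 had an adjusted p of 0.0736 (limma). Its log2 fold change of 2.52 could not move in this fit, since each group held 1 array of each number. The correlation of deviations between arrays with the same number was 0.175 over 2 pairs, and the labels do not pair the samples beyond the number.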
